A study of Mus musculus with 4 samples.

Results

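Oxidative phosphorylation genes were followed in single brain endothelial and mural cells of mice on control diet or on PLX5622, an inhibitor of the colony-stimulating factor receptor that removes microglia. Members were taken by symbol: names that start with Nduf, Uqcr, Cox4 to Cox8 or Atp5, and the protein-coding genes of mitochondrial DNA. This gave 103 genes of the 32285 in the count matrices, 90 encoded in the nucleus and 13 in mitochondrial DNA. The nuclear members comprised 37 for complex I, 8 for complex III, 20 for complex IV and 17 for ATP synthase, plus 8 Ndufaf genes, which code for complex I assembly factors and not for subunits. Ndufa4 and Ndufa4l2 were counted with complex IV, where the Ndufa4 protein resides. Ndufb1-ps is annotated as a non-coding transcript, complex II has no gene with such a name, and Cyc1 of complex III is not matched by the symbols used. The mitochondrial members comprised 7 for complex I, 1 for complex III, 3 for complex IV and 2 for ATP synthase.

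The respiratory chain passes electrons from NADH to oxygen through complexes I, III and IV, which pump protons across the inner mitochondrial membrane, and ATP synthase uses the resulting gradient to make ATP. Each of these complexes is built from proteins of both genomes: most subunits are imported after translation in the cytosol, while a few core subunits are transcribed and translated inside the organelle. Brain endothelial cells, which form the blood-brain barrier, have been described as rich in mitochondria, and several complex IV subunits exist as tissue-restricted isoforms, among them Cox4i2 and the Ndufa4 paralogue Ndufa4l2, both known to respond to low oxygen.

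All mice were C57BL6. The control group received the control diet and the treated group received 1200 ppm PLX5622 in the diet, both for 1 month. Cells of the dissociated brain, without meninges, cerebellum and olfactory bulbs, were sorted on CD31, which endothelial cells carry on their surface, and counted by 3-prime single-cell RNA sequencing with molecular identifiers (UMIs). Each diet had 2 libraries, and brains of 3 mice were spread over the 2 libraries of a diet, so that libraries of a diet may share mice and p-values measure the spread between libraries.

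Of all cells with at least 1000 UMIs, at least 500 detected genes and at most 10% of UMIs from mitochondrial genes, 13331 were endothelial-like by their markers (1525 to 4975 a library), 212 pericyte-like (20 to 69) and 226 smooth muscle-like (36 to 69). Of the endothelial-like cells, 1672 were arterial-like, 9299 capillary-like and 775 venous-like, and 1585 were given no zone. Clusters were made without the members and without any mitochondrial gene, from other genes of the same cells. The 10 endothelial markers summed to between 24218 and 24702 CPM (UMIs of a class in a library scaled to a total of 1000000) in endothelial-like cells, 12 microglia and macrophage markers to between 24.3 and 28.3 CPM. Libraries held 11186648 to 38600208 UMIs, and pairs of libraries shared 1 to 6 barcodes. Control diet 1 had the fewest UMIs and the fewest kept cells (1696). Its median of 5184 UMIs a kept cell was not the lowest, which was 3834 in PLX5622 diet 1. In control diet 1 cytosolic ribosomal protein genes held 8.23% of endothelial UMIs, against 9.65% to 10.2% in the other 3, and its members were low as well (below). Each UMI counts 1 captured transcript whatever its length, so levels in CPM are set side by side between genes. How well transcripts are captured can differ between genes, also between nuclear and mitochondrial ones, and was not measured. Values for the 4 libraries are given in the order control diet 1, control diet 2, PLX5622 diet 1, PLX5622 diet 2.

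In endothelial-like cells the 13 mitochondrial members had a median level of 1866 CPM and the 90 nuclear members one of 165.9 CPM. The 4 most abundant were mt-Atp6 (6047 ± 369 CPM, SD, n = 4 libraries) and the catalytic core of complex IV, mt-Co1 (5673 ± 403), mt-Co2 (4757 ± 293) and mt-Co3 (4590 ± 403). The cytochrome b gene mt-Cytb followed at 2997 ± 234 CPM, then the complex I genes mt-Nd2 (2697), mt-Nd1 (1866), mt-Nd4 (1499.6) and mt-Nd3 (1067). The lowest were mt-Nd5 (534), mt-Atp8 (523), mt-Nd4l (461) and mt-Nd6 (104.6), the only member on the other strand of mitochondrial DNA. mt-Atp8 overlaps mt-Atp6 and mt-Nd4l overlaps mt-Nd4 on the same strand, so the division of counts within these pairs is uncertain.

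Among nuclear members, 63 were at or above 100 CPM, 16 between 10 and 100, 6 between 1 and 10 and 5 below 1. Ndufa7, an accessory subunit of complex I, was the highest with 549, 647, 637 and 641 CPM. Its mean of 618 CPM was above that of each of the 4 lowest mitochondrial genes in captured UMIs. For mt-Atp8 and mt-Nd4l, among these 4, the overlap with a neighbour leaves the level uncertain. Cox6c (613 CPM), Atp5j (577), Cox4i1 (546), Cox7c (533) and Atp5e (530), small subunits of complex IV and ATP synthase, came next. Within complex I, core subunits encoded in the nucleus, which belong to the arm that takes electrons from NADH, were among the lower ones: Ndufs1 was at 32.2 CPM, Ndufs8 at 67.9, Ndufs3 at 69.4, Ndufv1 at 72.8, Ndufv2 at 96.3 and Ndufs7 at 108.8. The accessory subunits Ndufa9 (54.96), Ndufa10 (65.7), Ndufb6 (81.1) and Ndufs4 (102.5) lay in the same range. In complex III the larger subunits lay apart, with Uqcrfs1 (the Rieske iron-sulfur protein, 78.6 CPM), Uqcrc1 (95.3) and Uqcrc2 (117) below the small subunits Uqcr10 (247), Uqcrq (272), Uqcr11 (339), Uqcrb (411) and Uqcrh (425). These groupings by role were made after the levels were seen, and no test was run on them. The assembly factors ranged from 7.78 CPM (Ndufaf5) to 74.7 CPM (Ndufaf7).

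**Figure D1:**
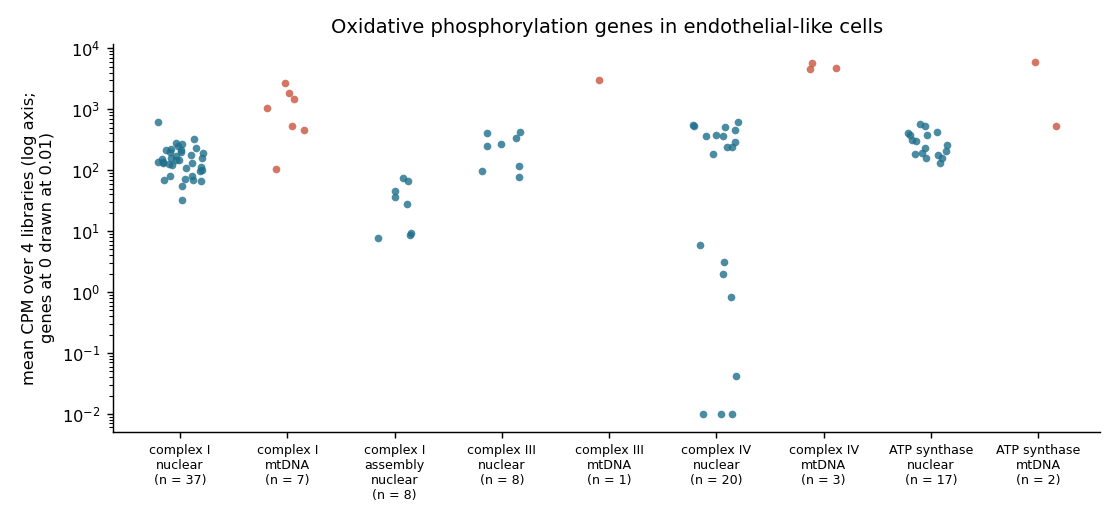
Mean level of each of the 103 members in endothelial-like cells over the 4 libraries, in CPM on a log axis, by complex and by genome; members with no UMI are drawn at 0.01. Mitochondrial genes reach 6047 CPM (mt-Atp6) while the highest nuclear gene, Ndufa7, stands at 618 CPM.

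Several muscle- and testis-type isoforms had 0 to 5 UMIs in endothelial-like cells. Cox7b2 and Cox8c had 0 UMIs, which allows up to 0.0384 CPM, Cox6a2 had 1 UMI and Cox8b 5 UMIs among 78145622. Cox7a1, the heart and muscle form of subunit VIIa, was higher, at 6.03 CPM, and held 477 UMIs against 30071 of its partner Cox7a2, or 1.56% of the pair. Of the 3 genes for the identical c subunit of ATP synthase, Atp5g2 held 51.1% ± 1.0 (SD, n = 4) of their summed UMIs, Atp5g3 26.4% ± 1.5 and Atp5g1 22.5% ± 1.1. In smooth muscle-like cells Atp5g3 held 36.6% ± 2.5, Atp5g2 46.8% ± 2.4 and Atp5g1 16.6% ± 0.3, and no range overlapped that of endothelial-like cells. In pericyte-like cells Atp5g3 held 35.2% ± 4.4 and Atp5g2 41.2% ± 3.1, also without overlap, while Atp5g1 (23.6% ± 3.1) overlapped. These shares were not tested.

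Promoters were examined because nuclear members are known targets of the factors NRF1 and GABPA, which act on many mitochondrial genes. RefSeq promoters (GRCm38.p6, from 250 bases before to 20 after RefSeq's gene start, which can differ from that of the annotation used for gene coordinates) were matched for 74 of the 90 nuclear members. The NRF1 letters GCATGCGC stood on either strand in 9 of the 74 (12.2%), against 2.59% of 27025 promoters of all genes. The GABPA letters CCGGAAG stood in 15 (20.3%), against 8.30%. For ACGTG, the core of the hypoxia response element, the shares were 23.0% and 17.96%. For the YY1 letters AAGATGGC they were 2.70% and 1.98%. A match is a description of letters and no sign of binding. Whether matches go with differences between cell classes was not tested. Ndufa13, Ndufs7 and Atp5b, higher in smooth muscle-like cells, and Ndufs8, higher in venous-like cells, had none of the 4 motifs. Ndufs4 and Ndufb4, lower in smooth muscle-like cells, had none either, while Ndufa7, also lower there, had an ACGTG match. Promoters of 4 members, chosen for their differences between cell classes, are given 5′ to 3′ on the strand of the gene, matched letters in capitals. Ndufa8 was high in venous-like cells (chr2:36049319-36049588, minus strand, an NRF1 match). Cox8a was high in smooth muscle-like cells (chr19:7217597-7217866, minus strand, a GABPA match on the other strand). Ndufa4 and Ndufaf7 were low in mural cells (chr6:11907431-11907700, minus strand, and chr17:78936885-78937154, plus strand, neither with any of the 4 motifs).
Ndufa8: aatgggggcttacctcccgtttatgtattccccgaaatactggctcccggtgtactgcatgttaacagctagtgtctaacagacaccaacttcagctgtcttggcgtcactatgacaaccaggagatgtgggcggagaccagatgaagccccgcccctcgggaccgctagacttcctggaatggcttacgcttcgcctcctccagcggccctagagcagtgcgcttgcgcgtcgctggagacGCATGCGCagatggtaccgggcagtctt
Cox8a: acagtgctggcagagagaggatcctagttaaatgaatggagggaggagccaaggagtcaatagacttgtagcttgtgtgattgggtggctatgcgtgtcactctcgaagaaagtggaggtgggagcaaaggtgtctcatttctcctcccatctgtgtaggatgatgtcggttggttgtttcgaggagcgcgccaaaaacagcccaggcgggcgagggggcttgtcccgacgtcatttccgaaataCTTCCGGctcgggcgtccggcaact
Ndufa4: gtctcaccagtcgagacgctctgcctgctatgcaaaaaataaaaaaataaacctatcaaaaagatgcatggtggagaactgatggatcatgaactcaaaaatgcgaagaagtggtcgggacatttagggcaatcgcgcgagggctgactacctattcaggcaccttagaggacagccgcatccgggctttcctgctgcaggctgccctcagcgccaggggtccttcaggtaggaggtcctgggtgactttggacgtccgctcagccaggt
Ndufaf7: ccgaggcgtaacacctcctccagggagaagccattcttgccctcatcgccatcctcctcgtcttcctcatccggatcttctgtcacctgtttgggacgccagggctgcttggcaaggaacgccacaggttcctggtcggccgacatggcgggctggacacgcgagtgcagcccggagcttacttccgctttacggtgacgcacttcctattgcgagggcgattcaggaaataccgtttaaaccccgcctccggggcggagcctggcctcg

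Summed over genes, nuclear members held 1.65%, 1.84%, 1.85% and 1.88% of endothelial UMIs and mitochondrial members 3.02%, 3.32%, 3.30% and 3.49%. The ratio of nuclear to mitochondrial UMIs was 0.546, 0.555, 0.562 and 0.538, so that both sums were low in control diet 1 while their ratio was not. Arterial-like cells had the highest ratio of the 3 zones (0.606, 0.606, 0.616 and 0.583), capillary-like cells stood between (0.548, 0.553, 0.559 and 0.535) and venous-like cells were lowest (0.438, 0.484, 0.492 and 0.470), and the 3 ranges did not overlap. Of the 6 classes compared, smooth muscle-like cells had the largest sums (nuclear 2.47% to 2.82%, mitochondrial 5.68% to 6.53%) and ratios of 0.411, 0.434, 0.416 and 0.443. Pericyte-like cells ranged from 0.423 to 0.518 and overlapped both venous-like and smooth muscle-like cells. No test was made on these sums. The limit of 10% on mitochondrial UMIs bounds the mitochondrial sum in each cell: it removed 0.493% of endothelial-like and 5.04% of smooth muscle-like cells.

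**Figure D2:**
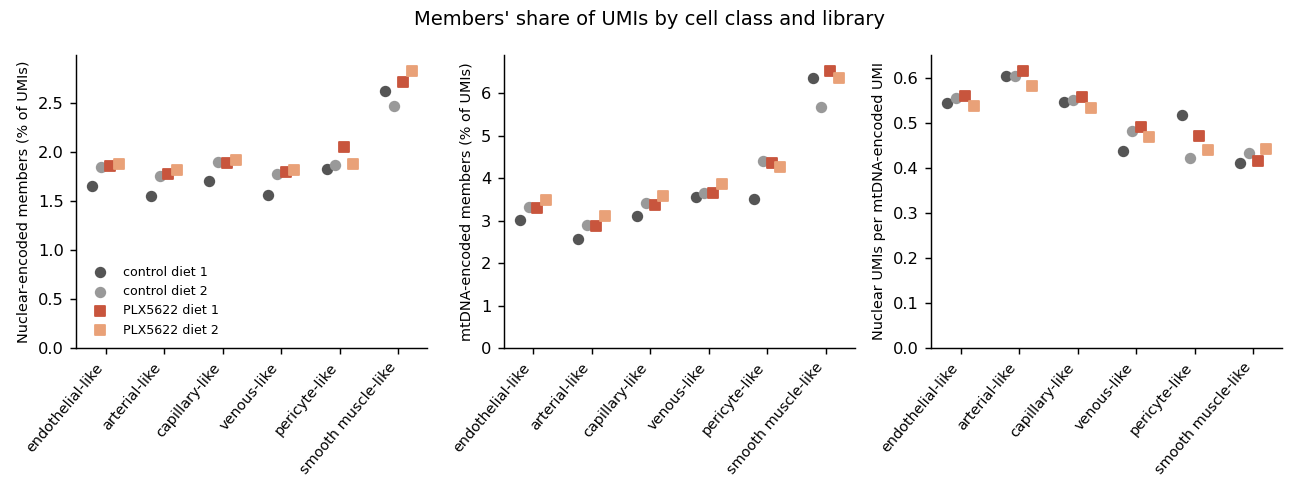
Share of UMIs from nuclear members, share from mitochondrial members, and their ratio, for each of 6 cell classes (x axis) and each library (points; circles control diet, squares PLX5622 diet). The ratio falls from arterial-like (0.583 to 0.616) to venous-like cells (0.438 to 0.492) in all 4 libraries, and smooth muscle-like cells hold the highest share of both kinds.

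Cell by cell, the nuclear share of endothelial-like cells went with the share of ribosomal protein genes (Spearman's rho 0.42 to 0.50 within a library) more than with the mitochondrial share (0.12 to 0.20), and against the cell's total UMIs (-0.38 to -0.28). These are descriptions over 1525 to 4975 cells that share a library, and the shares have a common denominator. In control diet 2 the median nuclear share was 2.10% in cells of 1000 to 2000 UMIs and 1.65% in cells of 10000 or more. In barcodes below 100 UMIs, which hold free RNA, nuclear members made up 2.07% to 2.31% and mitochondrial members 3.30% to 4.49%. Both shares were above those of endothelial-like cells of the same library. The part of free RNA in the differences between classes and libraries was not tested.

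The diet comparison asked whether PLX5622 changed these genes in any cell class. No member passed an adjusted p of 0.05 (edgeR quasi-likelihood test, Benjamini-Hochberg over all genes) in endothelial-like cells, where 99 members were tested, 6 had an unadjusted p under 0.05 and 1.07% of all 12810 genes passed. DESeq2 also called 0 members. The smallest adjusted p was 0.314, for Ndufa3, an accessory subunit of complex I, whose level was 199, 220.0, 249.96 and 247 CPM (log2 difference PLX5622 minus control 0.28 ± 0.11 SE). Both PLX5622 libraries were above both controls for Ndufa3, and also for Atp5mpl, a small protein of ATP synthase, at 152, 141, 175 and 162 CPM (0.25 ± 0.09, adjusted p = 0.326 by edgeR). Ndufs8, which carries iron-sulfur clusters of complex I, was at 61.4, 65.5, 72.6 and 72.1 CPM (0.22 ± 0.09, adjusted p = 0.400 by edgeR).

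Fitted differences were small and mostly of 1 sign: 92 of 99 members were above 0, with a median of 0.13 (log2) against 0.00 for all genes, and a range from -0.09 to 0.39. Both PLX5622 libraries lay above both controls for 42 members, against 15.1% of all genes, and below both for 5, against 25.7%. The 92 cytosolic ribosomal protein genes tested showed a like pattern, with 85 above 0 and a median of 0.16. Leaving out control diet 1 removed this lean for nuclear members and reduced it for mitochondrial ones. Of the 79 nuclear members at 20 CPM or more, 65 were lowest in that library, and 10 of the 13 mitochondrial members were. Without control diet 1 the median of nuclear members was 0.0068, with 43 of 86 above 0. That of mitochondrial members was 0.05, with 9 of 13 above 0. Without control diet 2 the nuclear median was 0.28, and 2 members passed by edgeR, where 1.08% of all genes did: Ndufa3 (0.41 ± 0.09, adjusted p = 0.0440) and Ndufb7, an accessory subunit of complex I (0.40 ± 0.09, adjusted p = 0.0469). In both of these fits 1 control library stands alone and the spread comes from the PLX5622 libraries.

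**Figure D3:**
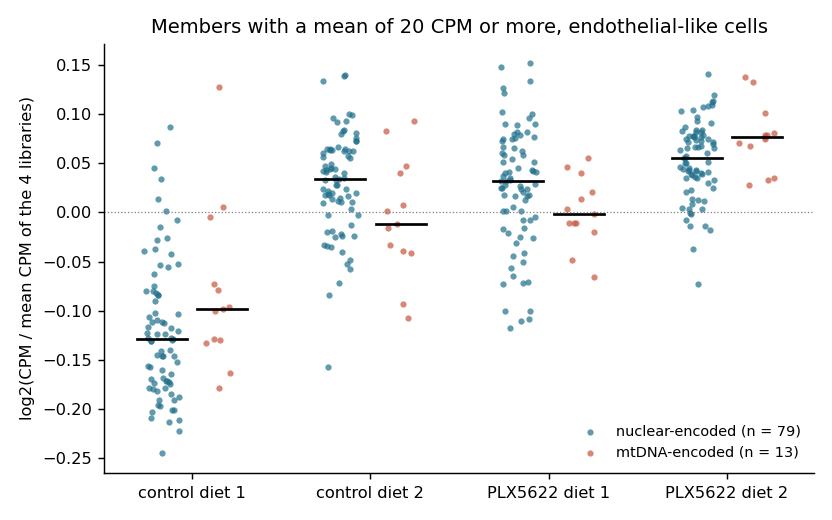
Level of each member with a mean of at least 20 CPM in endothelial-like cells, as the log2 of its CPM over its mean in the 4 libraries, for 79 nuclear and 13 mitochondrial members; bars are medians. Control diet 1 is low for both kinds (medians -0.13 and -0.10), while control diet 2 and both PLX5622 libraries have medians from -0.01 to 0.08.

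In the other classes no member passed the edgeR test between diets either. Unadjusted p-values under 0.05 numbered 4 of 97 members in arterial-like cells (0.406% of all genes passed after adjustment), 5 of 99 in capillary-like (1.56%), 3 of 96 in venous-like (0.697%), 3 of 94 in pericyte-like (0.0%) and 2 of 94 in smooth muscle-like cells (0.0%), and DESeq2 called 0 members in each. The median difference was 0.13, 0.10, 0.12, 0.14 and 0.15. All of these comparisons use the same 4 libraries. In venous-like cells 4 members passed when control diet 2 was left out, Atp5e, Ndufa3, Uqcr10 and Ndufb4, at log2 differences from 0.40 to 0.62, while the share of all genes that passed went from 0.697% to 2.48%. That fit too has control diet 1 as its only control. A test of whether the diet difference varied with the zone called 0 members (2 at an unadjusted p under 0.05 and 0.664% of all genes after adjustment), and the same test over endothelial-like, pericyte-like and smooth muscle-like cells called 0 members (0 at an unadjusted p under 0.05, 0.0% of all genes), both by edgeR.

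Between zones of the same library, all members called were lower in arterial-like than in capillary-like cells, with few nuclear ones at matched depth (next paragraph). Of 97 members tested, 38 fell and 0 rose (edgeR, adjusted p under 0.05), where 29.3% of all genes passed, 13.8% as lower and 15.6% as higher. The 38 were 12 of the 13 mitochondrial members and 26 of 84 nuclear members, 12 of these in complex I, 4 in complex III, 4 in complex IV, 5 in ATP synthase and 1 an assembly factor. The mitochondrial sum fell by more than the nuclear one: log2 differences were -0.24 ± 0.03 and -0.10 ± 0.03 (SD, n = 4 libraries), and the mitochondrial sum was the further below 0 in each library.

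Ndufa7 had 606, 710.5, 679 and 688 CPM in capillary-like cells and 441, 520.5, 544 and 559.7 in arterial-like cells, ranges that did not overlap (log2 difference -0.38 ± 0.04 SE, adjusted p = 1.3e-12 by edgeR). The next 4 nuclear members by size were all complex I subunits: Ndufa8 (-0.36), Ndufs6 (-0.34), Ndufa3 (-0.30) and Ndufs4 (-0.29), each lower in 4 of 4 libraries. mt-Nd2 had 2633, 2757, 2868 and 2959 CPM in capillary-like cells and 2102, 2239, 2352 and 2449 in arterial-like cells (-0.30 ± 0.03, adjusted p = 4.6e-12 by edgeR). mt-Nd6 was the exception among mitochondrial genes, at -0.03 ± 0.06. Cytosolic ribosomal protein genes moved with the members here, 65 of 90 lower and 4 higher. Arterial-like cells were deeper than capillary-like cells, with median UMIs of 6090 and 4806. In cells of 4000 to 10000 UMIs only, 12 mitochondrial and 7 nuclear members were called lower, and 11% of all genes were. For nuclear members that share was not above the share of all genes. The mitochondrial sum differed there by -0.24 ± 0.03 and the nuclear one by -0.08 ± 0.04 (log2, SD, n = 4 libraries).

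In venous-like against capillary-like cells members of the nuclear and the mitochondrial genome moved apart. Of 97 members, 33 passed (20.4% of all genes did, 11% higher and 9.44% lower): 9 mitochondrial members and the complex I genes Ndufa8 and Ndufs8 rose, and 22 nuclear members fell, 11 of them in complex I. The summed mitochondrial members differed by 0.13 ± 0.04 and the nuclear ones by -0.09 ± 0.03 (log2, SD, n = 4). This comparison uses the same capillary sums as the arterial one.

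Ndufa8, a subunit of the membrane side of complex I that lies in the intermembrane space (chr2:36036326-36049406, GRCm38), had the largest difference of all members tested between zones. Its level was 236, 255, 233 and 258 CPM in venous-like cells, 123, 138, 122 and 129.5 in capillary-like and 95.0, 100.5, 106 and 101.8 in arterial-like cells. The 3 ranges did not overlap, and the venous level was 1.90-fold the capillary one (log2 difference 0.92 ± 0.06, adjusted p = 1.6e-23 by edgeR). Its diet difference in endothelial-like cells was 0.04 ± 0.11.

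Ndufaf7, a methyltransferase that acts during complex I assembly (chr17:78937136-78948052), went the other way, with 52.1, 47.5, 48.7 and 47.2 CPM in venous-like and 85.3, 84.7, 71.0 and 78.6 in capillary-like cells (-0.75 ± 0.09, adjusted p = 1.6e-09 by edgeR). Ndufa7 (-0.34), Ndufb8 (-0.25), Ndufb3 (-0.23) and Atp5j (-0.22) were the next lower nuclear members. Of the mitochondrial genes, mt-Nd4 (0.18 ± 0.04, adjusted p = 6.5e-05 by edgeR) and mt-Nd6 (0.20 ± 0.06, adjusted p = 0.0173 by edgeR) differed by the most.

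The counts called depended on depth and on scaling, while the gap between the sums of both genomes was of like size at matched depth. Venous-like cells had median UMIs of 8320. In cells of 4000 to 10000 UMIs, 11 mitochondrial members were higher while only 2 nuclear members were lower, Ndufaf7 (-0.82) and Ndufa7 (-0.18), and the nuclear sum differed by -0.01 ± 0.05, the mitochondrial by 0.18 ± 0.02, where 6.39% of all genes were higher and 5.83% lower. The nuclear minus the mitochondrial log2 difference was -0.22 ± 0.07 over all cells and -0.19 ± 0.03 in these, below 0 in each library in both (SD, n = 4). Ndufa8 was at 1.03 there. Ndufs8 was at 63.7, 75.2, 90.2 and 85.8 CPM in venous-like and 62.0, 65.5, 72.6 and 72.6 in capillary-like cells (0.20 ± 0.07, adjusted p = 0.0417 by edgeR), ranges that overlapped. Without scaling factors 12 members were higher and 15 lower, and without a filter on low counts 3 were higher and 38 lower. Without control diet 2, 19 members and 16.3% of all genes passed. Of 90 ribosomal protein genes 26 rose and 2 fell in venous-like cells.

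**Figure D4:**
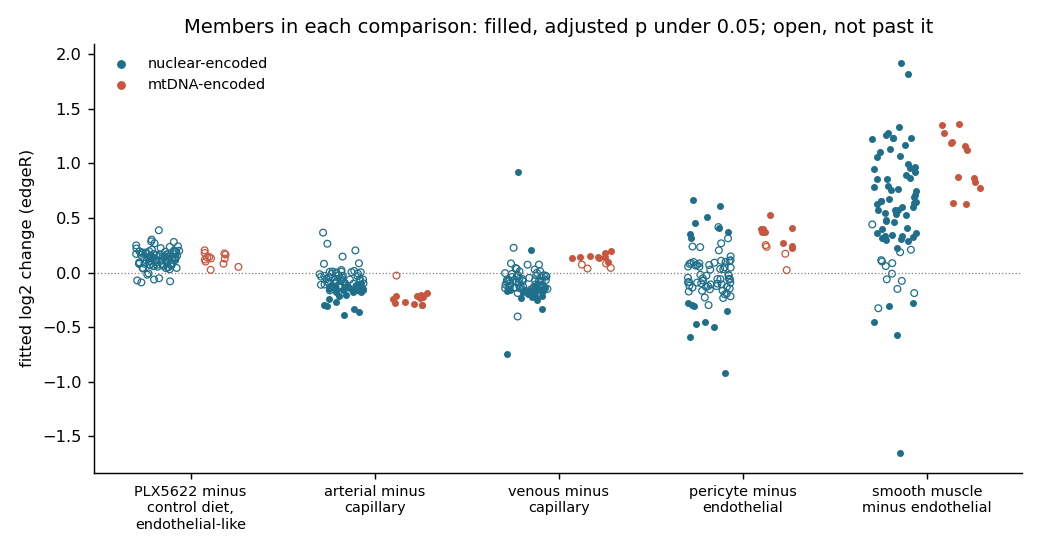
Fitted log2 difference of each member in 5 comparisons, nuclear and mitochondrial members side by side; filled points passed an adjusted p of 0.05 (edgeR). Ndufa4l2 and Cox4i2, between 7.11 and 7.69 in the mural comparisons, lie above the axis and are left out; no point is filled for diet, and most points of the smooth muscle comparison are filled and above 0 (76 members passed as higher, these 2 included).

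Smooth muscle-like cells had more of nearly the whole set. Of 94 members tested against endothelial-like cells of the same library, 63 nuclear and all 13 mitochondrial members rose and 5 fell, where 58.7% of all genes passed 29.4% as higher and 29.2% as lower (edgeR). The median difference was 0.64, against -0.02 for all genes. In all, 16 of 17 nuclear ATP synthase genes, 28 of 37 complex I genes, 7 of 8 complex III genes and 11 of 14 nuclear complex IV genes tested were higher, and 1 of 5 assembly factors. Ndufa4l2 and Cox4i2, among the complex IV genes, passed the filter on low counts only through their mural levels (below).

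Cox8a, a small subunit of complex IV, had 1679.8, 1628, 1855 and 1817 CPM in smooth muscle-like cells and 436, 505, 534 and 532 in endothelial-like cells, 3.77-fold more (log2 difference 1.91 ± 0.09, adjusted p = 1.8e-17 by edgeR). Ndufa13, a complex I subunit also described as GRIM-19, had 706, 689, 702 and 802 against 199, 236, 222 and 235 CPM (1.82 ± 0.10, adjusted p = 1.1e-15 by edgeR). Both genes were far apart between the classes in every library. Ndufa13 overlaps Yjefn3 on the same strand, so the division of counts between these neighbours is uncertain. Ndufs7 (1.33) and Atp5b, the catalytic beta subunit of ATP synthase (1.22), rose with them. Among mitochondrial genes mt-Cytb (1.36 ± 0.07) and mt-Nd4 (1.35 ± 0.08) rose most, and mt-Atp8 (0.63) and mt-Co1 (0.64) least.

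The 5 lower members were Ndufaf7 (-1.65 ± 0.18, at 20.6, 26.7, 16.8 and 21.01 CPM against 71.0 to 78.5 in endothelial-like cells, adjusted p = 5.4e-09 by edgeR), Ndufa7 (-0.57), Ndufs4 (-0.45), Ndufa4 (-0.31) and Ndufb4 (-0.27). Ndufb4 passed neither with DESeq2 (adjusted p = 0.0756) nor without control diet 2, PLX5622 diet 1 or PLX5622 diet 2 (adjusted p = 0.153, 0.150 and 0.0544 by edgeR). Complex II, the citrate cycle and cytochrome c with coenzyme Q synthesis moved the same way, with 4 of 4, 12 of 13 and 5 of 5 tested genes higher. The last list has 11 genes, and those too low for the filter on low counts, which the small mural sums shape, were not tested. The 5 therefore do not stand for the whole list. Mitochondrial ribosome genes did not follow as a group, with 12 higher and 7 lower of 71, and cytosolic ribosomal protein genes had 13 higher and 22 lower of 85.

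The mitochondrial limit touched this comparison most. With at most 5% mitochondrial UMIs, a limit exceeded by 77.7% of smooth muscle-like and 8.64% of endothelial-like cells, 24 nuclear and 8 mitochondrial members were higher and 4 lower (17.6% of all genes higher and 19.4% lower), and the median was 0.27. Smooth muscle-like cells had median UMIs of 8791.5, against 5123 in endothelial-like cells. In cells of 4000 to 10000 UMIs, 77 members passed, and 59.2% of all genes.

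In pericyte-like cells fewer members passed, a share near that of all genes. Of 94 tested, 10 nuclear and 9 mitochondrial members were higher and 9 nuclear members lower (27.4% of all genes passed, 15.6% higher and 11.9% lower, edgeR). For nuclear members alone, neither the higher nor the lower share was above that of all genes. The 10 higher ones include Ndufa4l2 and Cox4i2, which passed the filter on low counts only through their mural levels (below). Without scaling factors 22 were higher and 6 lower, and without a filter on low counts 12 and 16. Ndufs7 (0.61), Ndufb2 (0.51), Atp5b (0.45) and Cox8a (0.41) were higher. Ndufa4 (-0.92), Ndufaf7 (-0.59), Ndufa7 (-0.50), Cox5a (-0.47) and Cox7a2l (-0.45) were lower. mt-Cytb, at 3701, 5099, 4711 and 4316 CPM against 2675 to 3197 in endothelial-like cells, rose by 0.53 ± 0.07 (adjusted p = 6.0e-07 by edgeR). mt-Co1, at 0.02 ± 0.07, did not pass. Cytosolic ribosomal protein genes went the other way from these, 71 of 85 lower.

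Pericyte-like sums held much endothelial RNA: the 10 endothelial markers summed to 12052 to 15181 CPM there. The comparison was therefore repeated with mural cells in which endothelial markers made up under 1% of UMIs, 8, 34, 42 and 28 pericyte-like cells a library. In these, 12 nuclear members were higher and 10 lower, where 18.3% of all genes were higher and 20.3% lower. Of the mitochondrial members 2 passed, mt-Cytb (0.53) and mt-Co3 (0.45), and mt-Co1 (-0.37), mt-Nd1 (-0.09) and mt-Nd2 (-0.04) changed sign. The mitochondrial sum differed from endothelial-like cells by 0.34 ± 0.17 in these and 0.33 ± 0.09 over all pericyte-like cells, the nuclear sum by 0.28 ± 0.12 and 0.08 ± 0.08 (log2, SD, n = 4). In PLX5622 diet 2 these cells also held erythroid markers at 50261 CPM, a class of RNA whose part in the result was not tested.

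The clearest difference between endothelial and mural cells lay in 2 complex IV isoform pairs. Ndufa4l2 (chr10:127514967-127517154, overlapping Shmt2 on the other strand) had 2.75, 2.84, 3.31 and 3.47 CPM in endothelial-like, 539, 659, 836 and 597 in pericyte-like and 397, 529, 508 and 585 in smooth muscle-like cells. The fitted difference from endothelial-like cells was 7.69 ± 0.14 in pericyte-like (206-fold, adjusted p = 5.9e-26 by edgeR) and 7.47 ± 0.14 in smooth muscle-like cells (177-fold). Cox4i2 (chr2:152754173-152765037) had 1.49, 1.91, 2.27 and 2.31 CPM in endothelial-like, 312, 409, 522 and 322 in pericyte-like and 212, 260.1, 256 and 301 in smooth muscle-like cells, differences of 7.53 ± 0.15 (185-fold, adjusted p = 3.8e-25 by edgeR) and 7.11 ± 0.15 (138-fold). These folds rest on few endothelial UMIs, 242 of Ndufa4l2 and 160 of Cox4i2, and would be larger if part of these came from mural cells. The filter on low counts was applied to the 3 classes together, and both genes passed it only through their mural levels. Their p-values are therefore no added support, and the levels per library carry the difference.

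The partners behaved differently. Ndufa4 (chr6:11900292-11907497) had 437, 475, 469.6 and 466 CPM in endothelial-like and 233, 270.5, 286 and 216 in pericyte-like cells. In pericyte-like cells with under 1% endothelial markers it had 0, 64.9, 19.5 and 67.4 CPM, a fall of 10.5-fold from endothelial-like cells (-3.39 ± 0.28, adjusted p = 1.2e-13 by edgeR). There Ndufa4l2 held 602 UMIs and Ndufa4 20, or 96.8% of the pair for Ndufa4l2, and at least 95.3% in each library. Over all pericyte-like cells the share was 72.4%, in smooth muscle-like cells 60.0% and in endothelial-like cells 0.658%. Cox4i1 stayed near its endothelial level in pericyte-like cells (-0.07 ± 0.09), so that Cox4i2 reached 41.2% of its pair over all pericyte-like cells, 61.4% in those with few endothelial markers and 27.1% in smooth muscle-like cells, against 0.364% in endothelial-like cells. The order of the classes was the same in each library for both pairs.

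**Figure D5:**
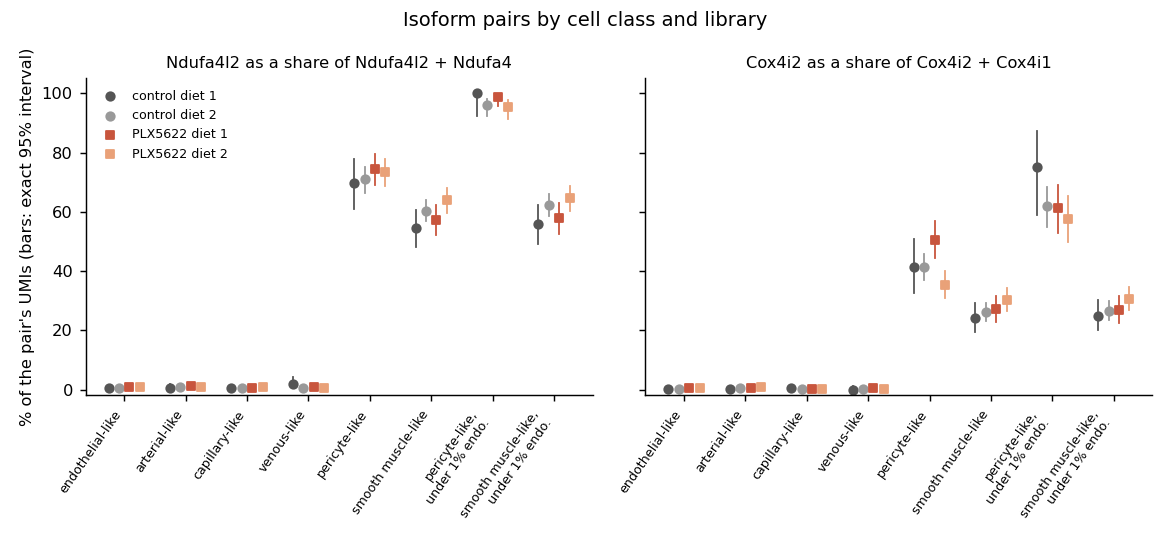
Share of Ndufa4l2 in Ndufa4l2 plus Ndufa4, and of Cox4i2 in Cox4i2 plus Cox4i1, by cell class and library, in percent of the pair's UMIs; bars are exact 95% intervals that cover counting error only. Endothelial classes lie near 0, and pericyte-like cells with under 1% endothelial markers reach at least 95.3% and 57.6% in each library.

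The low endothelial counts of both isoforms were set beside pericyte markers. Relative to pericyte-like cells with under 1% endothelial markers, endothelial-like cells held Ndufa4l2 at 0.203% and Cox4i2 at 0.219%, and 11 of 12 pericyte markers at 0.0423% to 0.222% (Rgs5 at 2.40%). Both isoforms lay above 10 of these 11 markers and below Higd1b. The part of pericyte RNA in the endothelial counts was not tested.

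Few genes around the chain passed between diets, as was so for all genes (1.07% of 12810 in endothelial-like cells). In endothelial-like cells 0 of 4 complex II, 0 of 13 citrate cycle, 0 of 78 mitochondrial ribosome, 0 of 16 biogenesis and mitochondrial transcription genes, 0 of 11 cytochrome c and coenzyme Q genes, 0 of 23 import genes and 0 of 20 assembly factors of complex IV and ATP synthase passed by edgeR, with 0, 0, 9, 0, 1, 3 and 2 at an unadjusted p under 0.05. Of 17 glycolysis genes, 1 passed: Ldha, a subunit of lactate dehydrogenase, was higher in PLX5622 (0.64 ± 0.14, adjusted p = 0.0359 by edgeR). In capillary-like cells 2 of 17 glycolysis genes and 1 of 20 of these assembly factors passed as higher, against 1.56% of all genes. In arterial-like and in venous-like cells 1 of 16 glycolysis genes did, against 0.406% and 0.697% of all genes. Between zones Ldha was lower in arterial-like than in capillary-like cells (-0.39 ± 0.05, adjusted p = 8.5e-10 by edgeR).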

How the data were processed

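Cells of 4 libraries were counted per gene and barcode; the deposited counts are raw, unnormalized UMI counts from Cell Ranger (version 6.0.1 per the submitters' processing notes, which also name Seurat 4.0, mm10 and mm39; the file headers name Cell Ranger 4). Starting from these, cells were filtered as stated, clustered without members and mitochondrial genes (log-normalized, 2000 variable genes, 30 components, Leiden resolution 0.6; zones 500, 10 and 0.5) and named from fixed markers. No doublet caller was run; mixed clusters were set aside. UMIs were summed per library and class and tested with edgeR 4.0.16 (quasi-likelihood, TMM factors, expression filter, Benjamini-Hochberg adjustment over all genes tested, threshold 0.05); zone and class comparisons had the library as a block, diet comparisons did not. The script was tested on simulated data. Alternatives were DESeq2 1.42.0 with its size factors, no TMM factors, no filter, other limits on cells, leaving out each library and a replicate block. Library depth limits the precision: endothelial sums held 8724946 to 32391344 UMIs, and intervals are exact (Clopper-Pearson) and cover counting error only.

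Members and lists were chosen with earlier results of these data known. Genes are named by rule: the 13 mitochondrial members, the 6 highest nuclear members, the 5 with the smallest p between diets, tissue-restricted isoforms with their partners, the 3 Atp5g genes, and the 5 highest and 5 lowest differences of each zone and class comparison (at least 20 CPM, one direction in 4 of 4 libraries). Core subunits of complexes I and III, assembly factor extremes, and members called only without a library were named after their values were seen. Deviations of same-numbered libraries correlated at 0.03. With 2 libraries a diet this is a single value, which cannot show whether the replicate numbers pair libraries. Context lists were complex II, cytochrome c and coenzyme Q, biogenesis, mitochondrial and cytosolic ribosome, citrate cycle, glycolysis, mitochondrial import, and assembly of complex IV and ATP synthase. Annotation is GENCODE M21 (GRCm38) by gene identifier, matched for all 103 members. One member that the rule would name is not reported here.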

Additional observations from a re-analysis of the deposited data

How the results depend on the processing

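Of 208 alternatives for counts and ratios, 193 stayed within 1.5 times the count or 1 SD of the ratio. Between diets, leaving out 1 library in turn gave 0 to 2 members in endothelial-like and 0 to 4 in venous-like cells, the highest without control diet 2. Venous against capillary gave 19 to 27 when 1 library was left out. In cells of 4000 to 10000 UMIs, an alternative chosen after seeing the data, arterial-like cells gave 19, venous-like cells 15, and the ratio in smooth muscle-like cells was 0.470. At most 5% mitochondrial UMIs gave 12 members in pericyte-like and 36 in smooth muscle-like cells, and ratios of 0.572 (endothelial-like), 0.573 (capillary-like), 0.496 (venous-like), 0.508 (pericyte-like) and 0.568 (smooth muscle-like). Medians over cells were 0.569 (endothelial-like) and 0.567 (capillary-like).

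Signs changed for 19 values of named genes, and the cause was not tested. Between diets, leaving out 1 library gave -0.058 to 0.19 for Atp5j, -0.073 to 0.29 for Cox4i1 and -0.024 to 0.31 for Ndufa7; between arterial and capillary it gave -0.075 to 7.0e-05 for mt-Nd6. Without a filter, mt-Co2 was at -0.0044 and mt-Nd4l at -0.0094 in venous-like cells. In pericyte-like cells Cox4i1 was at 0.015 in cells of 4000 to 10000 UMIs. There mt-Co1 was at -0.031 with DESeq2, -0.13 without a filter, -0.10 at the 5% limit and -0.021 to 0.037 with 1 library left out, and in cells under 1% endothelial markers mt-Co1 was at -0.37, mt-Nd1 at -0.089 and mt-Nd2 at -0.043. In smooth muscle-like cells the 5% limit gave -0.021 for Cox4i1, -0.29 for Cox7a2l, -0.040 for mt-Co1 and -0.063 for mt-Nd5, and no filter gave -0.041 for Cox7a2l. Leaving out the filter moved the median of all genes by -0.35 in pericyte-like and -0.52 in smooth muscle-like cells, and leaving out TMM factors by -0.13 in the latter.

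With the replicate block 0 members passed in each of the 6 diet comparisons, with 9 at an unadjusted p under 0.05 in endothelial-like cells, and 283 of all genes passed there against 137 without it. With 2 libraries a diet, small differences could not be resolved, and rare classes (20 pericyte-like cells in control diet 1) had the least depth.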

Other observations

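Classes outside the comparisons had other balances of nuclear to mitochondrial UMIs. The 19 fenestrated endothelial-like cells, all from control libraries, had ratios of 0.893 and 0.963, with mitochondrial shares of 1.83% and 2.03%. Ratios ranged from 0.300 to 0.472 in astrocyte-like cells, 0.447 to 0.462 in clusters that mixed endothelial and pericyte markers, 0.476 to 0.562 in erythroid-like cells, 0.320 to 0.400 in 437 unnamed cells of few UMIs (mitochondrial share 6.02% to 6.60%) and 0.361 to 0.731 in 20 fibroblast-like cells. Cox6b2, the testis form of a complex IV subunit, held 0.216% of its pair with Cox6b1 in endothelial-like cells, 3.13% in pericyte-like cells (15 UMIs) and 2.25% in smooth muscle-like cells (21 UMIs). Mitochondrial import genes had 6 higher and 1 lower of 21 tested in smooth muscle-like cells, and complex IV and ATP synthase assembly factors 4 and 3 of 13 (edgeR). Glycolysis genes had 10 and 3 of 16, and biogenesis and mitochondrial transcription genes 3 and 0 of 9. These 4 lists held 26, 20, 19 and 16 genes, and the rest of each was not tested. Of all genes, 29.4% were higher and 29.2% lower. Except for glycolysis, the shares of higher genes in these lists lay near that of all genes.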
